A study of Mus musculus with 4 samples.

Results

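A set of 9 genes of deoxynucleotide supply and of the E2F family were followed across 4 expression arrays of mouse colonic epithelium. They are the enzyme genes Rrm1, Rrm2, Tyms, Tk1 and Dut and the transcription factor genes E2f1, E2f2, E2f7 and E2f8, taken by platform gene symbol with every probe set that names them. They are 9 of the 18193 genes named on the array and have 22 of its 45037 probe sets. Of these 22 probe sets, 21 name 1 gene, and 1 names Tyms together with its pseudogene Tyms-ps.

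The study hybridised 1 Affymetrix mouse expression array for each of 4 genotypes on the C57BL/6 background, labelled WT, Bmi1ΔIEC, Mel18ΔIEC and DKO, the last carrying Bmi1ΔIEC and Mel18ΔIEC together. The ΔIEC alleles are deletions in intestinal epithelial cells, and the labels do not name the Cre line behind them. All groups, wild type included, were 6 to 8 weeks old, received azoxymethane, a colon carcinogen, at 10 mg/kg and, 5 days later, drank 3.5% dextran sulfate sodium for 5 days, which injures the colon lining. On day 12 the epithelium was detached by shaking the colon in EDTA. The protocol describes no sorting, so other cell types can be present. How many mice stand behind an array is not stated, and the series text places the numbers 1, 3, 2 and 4 beside the double knockout, Bmi1, Mel18 and wild type without saying what they count. Each genotype is thus known from a single array, and no difference below has a standard deviation or a p-value.

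A dividing cell must make deoxynucleotides before it can copy its DNA. Ribonucleotide reductase, built from the large subunit Rrm1 and the small subunit Rrm2, reduces ribonucleotides to deoxynucleotides. Dut converts dUTP to dUMP, Tyms methylates dUMP to dTMP, and Tk1 recovers thymidine in the cytosol during S phase. E2F factors switch such genes on at the passage from G1 to S: E2f1 and E2f2 are activators that bind DNA with a DP partner and are held in check by the retinoblastoma protein, whereas E2f7 and E2f8 are repressors that bind without DP and are themselves induced by E2F in S phase. Bmi1 and Mel18 are related subunits of Polycomb repressive complex 1, which keeps Cdkn2a silent. Among the products of Cdkn2a is p16, an inhibitor of the cyclin D kinases that inactivate the retinoblastoma protein. In the colon, cells in S phase lie in the lower crypt.

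The start-site windows of the members were searched for letters that E2F factors bind, since the members are regarded as E2F-regulated genes. RefSeq windows on GRCm38.p6, 250 bases before to 50 bases after a start site, were found for 9 of 9 members. E2f2 had 2 windows, and the start site of the second lies 8508 bases inside the gene. The 8-letter forms TTTCCCGC, TTTCGCGC, TTTGCCGC and TTTGGCGC on either strand were present in 2 of the 10 windows, those of E2f2 and E2f7, against 2.26% of all 32851 windows and 38.5% of 39 windows of other S-phase genes. The 7-letter cores left when the leading T of each form is dropped were added after the sequences had been seen. They were present in 5 of the 10 windows against 9.57% of all windows and 64.1% of the S-phase windows. The windows of Tyms, Tk1, Dut and E2f1 held no match of either length. Those of Dut and E2f1 lie wholly inside the annotated gene, so the bases before its outer end were not searched. The letters TTTGAA or TTCGAA, known as the CHR element, were present in 2 of 10 windows against 19.2% of all. These were the second E2f2 window and the E2f8 window. CCAAT was present in 6 of 10 windows against 37.4% of all, and TATAAA in 0 of 10 against 13.6%. A match describes letters in the window and is not a measured binding site. Below are the windows of the reductase subunits, of a member that was lower on the double-knockout array (E2f7) and of the member that ran the other way (E2f2), with the 7-letter and 8-letter E2F matches in capitals.
Rrm1, chr7:102441445-102441744, + strand: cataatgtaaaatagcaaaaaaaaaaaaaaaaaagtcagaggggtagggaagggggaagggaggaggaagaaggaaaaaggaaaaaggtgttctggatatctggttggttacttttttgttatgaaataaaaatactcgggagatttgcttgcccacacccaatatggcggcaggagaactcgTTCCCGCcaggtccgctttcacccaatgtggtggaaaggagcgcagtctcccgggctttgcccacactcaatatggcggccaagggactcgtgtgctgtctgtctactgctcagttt
Rrm2, chr12:24708004-24708303, + strand: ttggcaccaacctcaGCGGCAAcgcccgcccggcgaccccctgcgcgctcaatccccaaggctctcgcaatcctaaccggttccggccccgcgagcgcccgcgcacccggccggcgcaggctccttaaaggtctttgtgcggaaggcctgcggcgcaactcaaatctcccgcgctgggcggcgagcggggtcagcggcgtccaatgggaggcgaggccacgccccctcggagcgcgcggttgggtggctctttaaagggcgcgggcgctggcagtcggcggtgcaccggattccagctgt
E2f7, chr10:110745189-110745488, + strand: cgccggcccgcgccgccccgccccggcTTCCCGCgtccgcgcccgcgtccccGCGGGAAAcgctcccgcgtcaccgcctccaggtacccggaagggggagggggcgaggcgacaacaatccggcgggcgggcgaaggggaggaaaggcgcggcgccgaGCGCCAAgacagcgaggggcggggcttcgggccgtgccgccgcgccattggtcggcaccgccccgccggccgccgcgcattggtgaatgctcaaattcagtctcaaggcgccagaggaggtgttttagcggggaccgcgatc
E2f2, chr4:136172024-136172323, + strand: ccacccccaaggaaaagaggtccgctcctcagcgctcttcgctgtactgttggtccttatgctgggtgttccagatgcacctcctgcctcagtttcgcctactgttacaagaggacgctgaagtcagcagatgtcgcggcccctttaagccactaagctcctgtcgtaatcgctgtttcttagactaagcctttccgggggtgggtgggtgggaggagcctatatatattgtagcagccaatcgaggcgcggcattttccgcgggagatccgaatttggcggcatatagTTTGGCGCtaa
In these windows the E2f2 match began 40 bases into the transcript, counting the start site as base 1, the Rrm1 match lay 67 bases before its start, and the Rrm2 match, on the opposite strand, 235 bases before. E2f7 had matches 223, 198 and 92 bases before its start. The start sites of these 4 windows are at the annotated outer end of the gene, whereas those for E2f1, E2f8 and Dut lie 466, 477 and 267 bases inside it, and their windows were not printed.

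Values are RMA intensities on a linear scale, where RMA is a background-corrected, normalised summary of the probes of a set, and differences are on the log2 scale. A gene is called higher or lower when it differed at least 2-fold, a log2 difference of 1, and its higher value reached the floor of 33.4 intensity units, the median of all values. Each gene is read from the probe set with the highest mean. Array medians lay between 32.1 and 34.2. The targeted transcripts did not check the labels: the 2 Bmi1 probe sets gave 116 and 88.4 in wild type, 334 and 339 with the Bmi1 label, and 432 and 399 with the DKO label, and the brighter Pcgf2 (Mel18) probe set read 30.2 in wild type and 39.8 on the array labelled Mel18ΔIEC. The arrays are therefore named by their labels, DKO for the double knockout. All 11 epithelial markers measured reached the floor on at least 1 array, with Epcam between 9819 and 10929.8 and Krt8 between 17489.6 and 19605. So did all measured T and NK cell, B and plasma cell, fibroblast and smooth muscle markers, so reaching the floor does not by itself set epithelium apart. As a measure of disagreement between probe sets, the brightest and second-brightest sets of 5220 genes were compared in their log2 difference from wild type. They differed by a median of 0.26 for Bmi1, 0.23 for Mel18 and 0.19 for DKO, and 90% of them by no more than 0.86, 0.70 and 0.56. Both sets are read from the same arrays, so these values hold no variation between arrays or mice.

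On the DKO-labelled array most of the members were lower than in wild type, the reductase subunit Rrm2 by the most. Of the 8 members that reached the floor, 6 were called lower and none higher, against a background of 2.2% of the 11853 genes tested called lower and 2.13% called higher. Their median log2 difference was -1.11, beside -0.01 over all genes tested. With all probe sets of a gene averaged, 3 of 8 were called lower, since Rrm1 (-0.50), Dut (-0.99) and E2f8 (-0.97) no longer passed. The 6 were Rrm1, Rrm2, Tk1, Dut, E2f7 and E2f8. The other two tested were E2f1 at -0.72 and E2f2 at 0.44. In bulk RNA, fewer cells in S phase and less RNA per cell cannot be told apart.

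**Figure D1:**
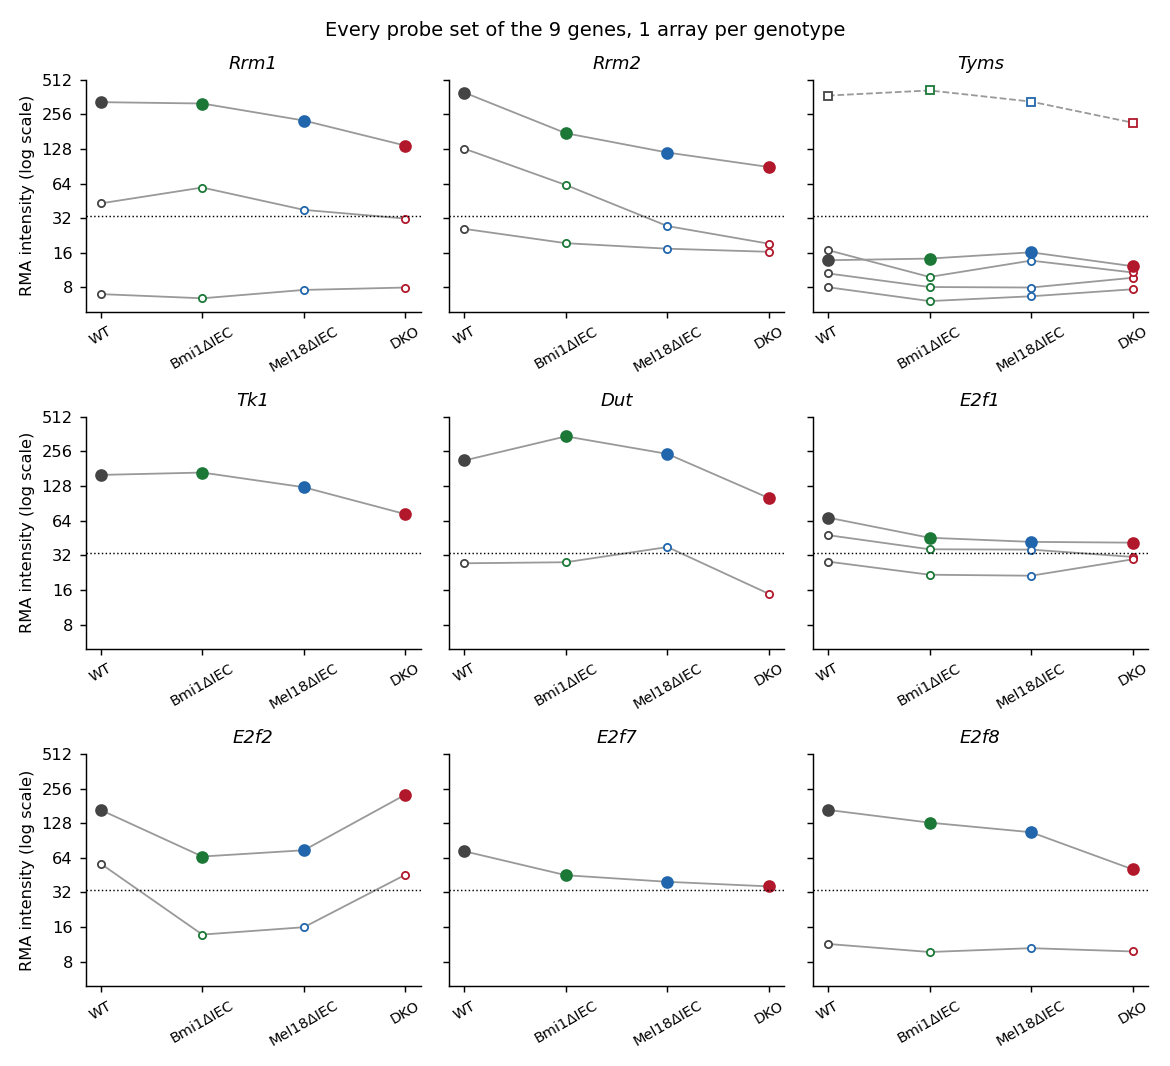
RMA intensity (log scale) of every probe set of the 9 genes on the WT, Bmi1ΔIEC, Mel18ΔIEC and DKO arrays, 1 array each. A line joins the values of 1 probe set, filled circles mark the probe set read for the gene, open circles the others, squares the set shared by Tyms and Tyms-ps, and the dotted line the floor of 33.4. The DKO value is the lowest of the 4 in the brightest set of Rrm1, Rrm2, Tk1, Dut, E2f1, E2f7 and E2f8 and the highest in that of E2f2. For E2f1 and E2f7 the Mel18 and DKO values change places when arrays are centred on the genes that reached the floor.

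Rrm2, the small subunit whose level limits the reductase, was the member furthest from wild type on the Mel18-labelled and DKO-labelled arrays. On the Bmi1-labelled array E2f2 was further away. The brightest Rrm2 probe set read 396 in wild type, 175 with the Bmi1 label, 119 with the Mel18 label and 89.1 with the DKO label. All 3 knockout arrays were thus below wild type, at log2 differences of -1.17, -1.73 and -2.15, and wild type read 4.44 times the double-knockout value. A separate Rrm2 probe set read 129, 62.2, 27.3 and 19.2 in the same order. The last pair was under the floor, so its 6.71-fold range between wild type and double knockout is not exact. The third set stayed under the floor on all arrays, at 25.9, 19.4, 17.4 and 16.3, and ran in the same order. Rrm2 was the only member called lower on all 3 knockout arrays, a pattern that 42 of 12156 genes at or above the floor showed (0.346%). These comparisons share the wild-type array.

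Rrm1, the large subunit that carries the catalytic site, was low on the DKO-labelled array and close to wild type on the Bmi1-labelled array. It read 327 in wild type, 318 with the Bmi1 label, 226 with the Mel18 label and 137 with the DKO label, log2 differences of -0.04, -0.53 and -1.26. Its weaker probe set read 43.1, 59.1, 37.8 and 31.8, a difference of -0.44 for the double knockout, so both sets were lowest there but the weaker one did not reach 2-fold. The third Rrm1 set lay between 6.44 and 7.99 on all arrays, under the floor. With the Bmi1 label Rrm2 stood at -1.17, or -0.88 with its probe sets averaged, which misses the rule, and Rrm1 at -0.04. The difference between the subunits was not tested. Rrm2b, the p53-inducible small subunit that serves resting cells and DNA repair, read 72.6, 104.5, 93.8 and 73.7, and no knockout array differed from wild type by 2-fold.

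Of the thymidylate enzymes, Tk1 and Dut were called lower on the DKO-labelled array, and Tyms could not be tested. Tk1 read 160.1 in wild type, 168 with the Bmi1 label, 125 with the Mel18 label and 73.0 with the DKO label, so that only the last was apart, at -1.13. Dut read 214, 347, 244 and 101, with the Bmi1-labelled array the highest (0.70) and the DKO-labelled array the lowest (-1.09). Its weaker set, at 27.3, 27.9, 37.8 and 14.8, was also lowest on the DKO-labelled array, at -0.89, and reached the floor only on the Mel18-labelled array. Dut sat just past the 2-fold rule in the double knockout and missed it, at -0.99, when its probe sets were averaged, and it had the largest distance between the DKO-labelled and Bmi1-labelled arrays among the members that were lower there, at -1.79.

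Tyms could not be read from a probe set of its own. All 4 sets that name Tyms alone lay between 6.09 and 16.9 on every array, under the floor. The set shared with the pseudogene Tyms-ps was bright, at 373, 413, 330.5 and 217, and was lowest on the DKO-labelled array at -0.78, which is under the 2-fold rule. Reads of that set cannot be divided between the gene and its copy, so Tyms is counted as not tested.

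Among the E2F genes, the repressors E2f7 and E2f8 were called lower on the DKO-labelled array and the activator E2f1 was not. E2f8 read 167 in wild type, 129.5 with the Bmi1 label, 107 with the Mel18 label and 50.8 with the DKO label, a difference of -1.72 for the last. The second E2f8 set was under the floor throughout, between 9.71 and 11.4. E2f7 read 73.0, 45.2, 39.6 and 36.1, which placed all 3 knockout arrays below wild type at -0.69, -0.88 and -1.02, and the double knockout only just past 2-fold. E2f1 read 68.1, 45.5, 41.9 and 41.3, at log2 differences of -0.58, -0.70 and -0.72, which pass 2-fold on no array. The weaker E2f1 set read 48.0, 36.1, 35.9 and 31.0 and gave -0.41, -0.42 and -0.63. The third E2f1 set stayed under the floor on all arrays, at 28.2, 21.7, 21.3 and 29.5. Unlike the other E2f1 sets it was highest on the DKO-labelled array, at 0.07 against wild type. For E2f1 and E2f7 the Mel18-labelled and DKO-labelled arrays lay within 0.02 and 0.13 of each other, so they are not ordered here. That is less than the median disagreement between probe sets of 1 gene in the comparisons with wild type. The order of these 2 arrays turned for both genes when each array was centred on its median over genes that reached the floor.

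E2f2 ran differently from the other members. Its brightest probe set read 167 in wild type, 65.7 with the Bmi1 label, 74.5 with the Mel18 label and 227 with the DKO label. The single-knockout arrays were both called lower, at -1.34 and -1.16, and the DKO-labelled array was above both of them, at 1.79 against the Bmi1-labelled and 1.61 against the Mel18-labelled array. The weaker set read 56.9, 13.8, 16.0 and 45.7 and had the same shape, with -2.05 and -1.84 for the single knockouts, whose values were under the floor. Against wild type the double-knockout value was 0.44 by the first set and -0.32 by the second, so the sets disagree in sign and the arrays are not ordered. Of 12156 genes, 108 (0.888%) were lower than wild type on both single-knockout arrays and higher in the double knockout than on both. E2f2 was the only member among them.

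Summed markers of T and NK cells, macrophages and neutrophils were, like E2f2, lowest on the single-knockout arrays, as were those of epithelium and smooth muscle. The summed intensity of the 10 measured T and NK cell markers, of 11 listed, was 938 in wild type, 672 with the Bmi1 label, 515 with the Mel18 label and 1870.5 with the DKO label, and all 10 reached the floor. The 11 macrophage markers, 10 of which reached it, summed to 4055, 2686, 2443 and 4099, and Itgam was under the floor throughout. The 9 measured neutrophil markers summed to 2281, 242, 325 and 2131, with Cxcr2, Camp and Mmp8 under the floor on every array. In these 3 sums both single-knockout arrays were below wild type and the double knockout. The same held for the 11 epithelial markers, at 77139, 65188, 68405 and 79595. It also held for the 7 smooth muscle markers, at 7059, 4510, 6260 and 6750. The falls were unequal in the markers tested. With the Bmi1 label the median difference from wild type was -1.81 for neutrophil, -1.16 for macrophage and -0.37 for T and NK cell markers. It was -0.16 for epithelial and -0.61 for smooth muscle markers. With the Mel18 label these medians were, in the same order, -2.09, -0.65, -0.73, -0.09 and -0.20. Of the 10 macrophage markers tested with the Bmi1 label, 9 lay below wild type and Cd14 above it, at 0.37. The 7 measured B and plasma cell markers did not run as 1 group: none was called on a single-knockout array, 2 were higher and none lower in the double knockout, and their median there was -0.12. Their sum of 1249, 1202, 1178 and 2288 rests on Jchain in the double knockout, at 1686. The part of these cells in the E2f2 values was not tested. By Euclidean distance over the 3 log2 differences from wild type, a choice made for E2f2 after its values were seen, the nearest of 11634 genes were Slc51b at 0.17, Tnfsf13b at 0.26, Fcer1a at 0.26, Itgb6 at 0.26, Basp1 at 0.27, Cxcl16 at 0.28, Mt4 at 0.30 and Serpina3n at 0.32. Slc51b, a subunit of the basolateral bile acid transporter, read 447, 179.5, 218 and 564, and Cxcl16, a chemokine, 259.6, 121, 128 and 360.3.

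On the single-knockout arrays fewer members passed the rule. On the Bmi1-labelled array 2 of 8 were called lower, Rrm2 and E2f2, against a background of 2.9% of 11934 genes, and none was called higher against 5.78%. The members' median there was -0.47, beside 0.13 over all genes. On the Mel18-labelled array the same 2 of 8 were lower, against 2.52% of 11861 genes, and none higher, against 3.16%. The median was -0.67, beside 0.07. The median over the 4 enzymes was 0.01 on the Bmi1-labelled array and -0.44 on the Mel18-labelled array, and over the 4 factors -0.64 and -0.79. Single genes spread widely within both groups, from -1.17 to 0.70 for the enzymes and from -1.34 to -0.37 for the factors on the Bmi1-labelled array, and 1 of 4 was called in each group on each array. Rrm1, Tk1 and Dut stayed within 2-fold of wild type on both single-knockout arrays.

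**Figure D2:**
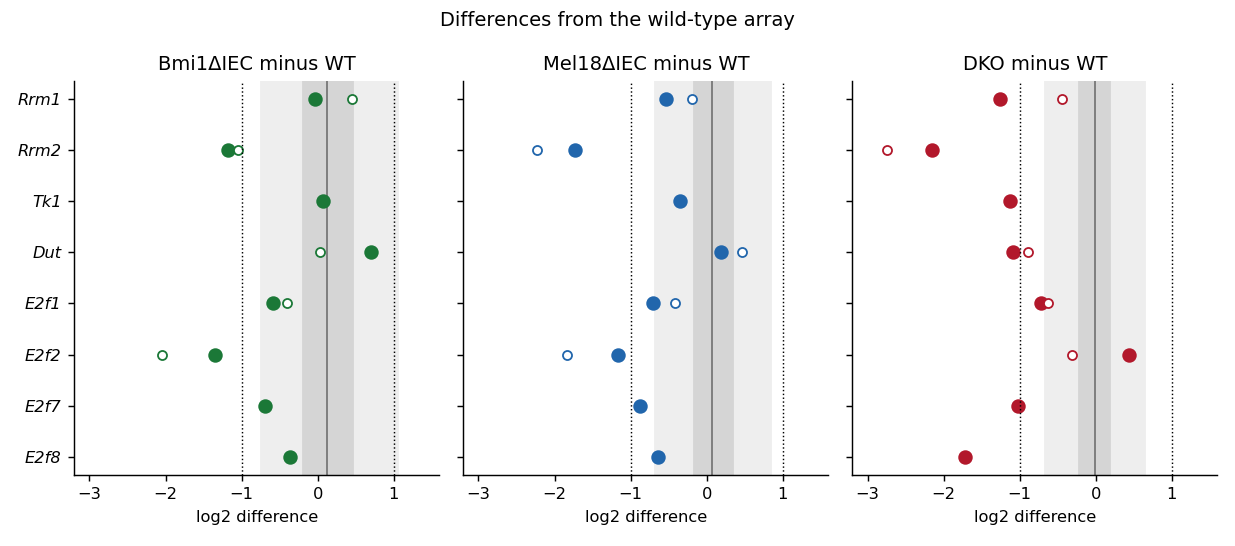
Log2 difference from the WT array for the 8 members that reached the floor, with 1 panel per knockout array. Filled circles are the probe set read for the gene, open circles its other sets that reached the floor, grey bands the middle 50% and 90% of all genes tested, the grey line their median, and dotted lines the 2-fold rule. Rrm2 lies past the rule in every panel, and E2f2 lies left of it on the 2 single-knockout arrays and at 0.44 on the DKO array.

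The double knockout was also set against each single knockout. Against the Bmi1-labelled array 4 of 8 members were called lower, namely Dut (-1.79), E2f8 (-1.35), Rrm1 (-1.22) and Tk1 (-1.20), where 8.01% of 11969 genes were lower, and E2f2 was higher, where 4.36% were higher. Rrm2 at -0.98 was just short of the rule by its brightest probe set, which is of a less specific type. Its next brightest set passed the rule at -1.70, from 62.2 to 19.2, the latter under the floor. The Rrm2 set that stayed under the floor on all arrays gave -0.25. Whether Rrm2 passed the rule here thus depends on the probe set. Against the Mel18-labelled array Dut (-1.28) and E2f8 (-1.07) were lower, where 4.55% of 11881 genes were, and E2f2 was higher, where 3.9% were. Both comparisons share the DKO-labelled array. As deposited, the sum of both single differences was closest to the double knockout for E2f1 and E2f7. The double-knockout value minus both single values plus wild type was 0.56 for each. It was 2.95 for E2f2, -1.97 for Dut, -0.85 for Tk1, -0.70 for E2f8, -0.68 for Rrm1 and 0.76 for Rrm2. This ranking depends on the scaling. With each array centred on its median over genes that reached the floor, Rrm1 and E2f8 came closer to the sum than E2f1 and E2f7.

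As deposited, 5 members, Rrm1, Rrm2, E2f1, E2f7 and E2f8, had values that decrease in the order wild type, Bmi1, Mel18, DKO, as did 3.22% of the 12156 genes at or above the floor. This count includes steps too small to order: with each array centred on its median over all probe sets Rrm1 was at 0.05 on the Bmi1-labelled array against wild type, and with each array centred on its median over genes that reached the floor E2f1 and E2f7 were higher with the DKO than with the Mel18 label, by 0.14 and 0.03. As deposited, 7 of the 8 members tested were lowest on the DKO-labelled array, as were 35.1% of all genes, and under the centring that turned E2f1 and E2f7 the other 5 were. By the same Euclidean distance the genes nearest to the mean of the 9 members, Tyms included at its level under the floor, were Pclaf, which binds the replication clamp PCNA, at 0.12, the replisome factor Wdhd1 at 0.16, the mast cell protease Cma1 at 0.16, the replication fork repair gene Mms22l at 0.17, the DNA sensor Cgas at 0.17, the condensin subunit Ncaph at 0.17, Clic5 at 0.19 and the spermidine synthase Srm at 0.19. Pclaf read 502, 411, 310 and 248. Nearest to Rrm2 were Clca3a1 at 0.32, Nat8f3 at 0.52, H2-Q5 at 0.72, the helicase subunit Mcm5 at 0.75, the chaperone Hsph1 at 0.83, the proton pump Atp12a at 0.84, the desaturase Scd1 at 0.86 and Dcbld2 at 0.91. Clca3a1 read 144, 53.0, 48.6 and 33.2.

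**Figure D3:**
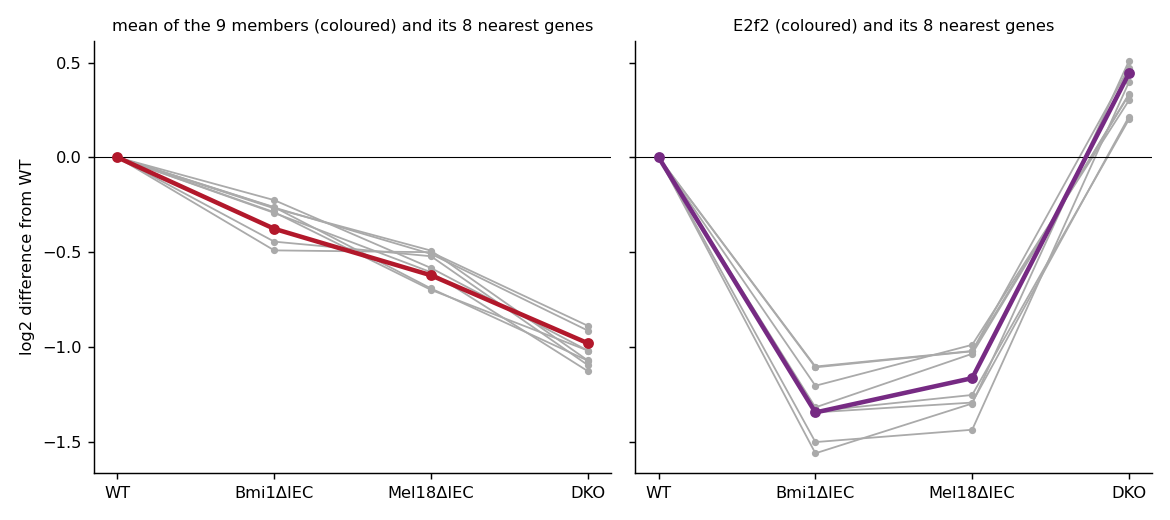
Log2 difference from the WT array on the 4 arrays for the mean of the 9 members (left, red) and for E2f2 (right, purple), each with the 8 genes nearest to it by Euclidean distance (grey). The members' mean lies at -0.38, -0.62 and -0.98, and E2f2 at -1.34, -1.16 and 0.44.

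Other E2F-regulated S-phase genes were lower on the DKO-labelled array too. Of 38 tested, 20 were called lower and none higher, and 37 lay below wild type, with a median of -1.03, where 2.2% of all genes were called lower and the median was -0.01. The count was 13 with probe sets averaged, with the floor at percentile 75, or without the probe sets of less specific types. The replicative helicase subunits Mcm5 (-2.32), Mcm6 (-2.28) and Mcm7 (-1.64), the transcription factor Myb (-1.80), the methylation maintenance factor Uhrf1 (-1.71) and Mcm3 (-1.60) were the furthest from wild type. The DNA polymerase subunit Pola1, the checkpoint kinase Chek1 and the uracil glycosylase Ung were at -1.55, -1.59 and -1.55. Orc1 at -0.09 and Prim2 at 0.13 were close to wild type. On the Mel18-labelled array 2 of 38 were lower, Mcm5 at -1.31 and Mcm3 at -1.06, where 2.52% of all genes were. The list median there was -0.40. On the Bmi1-labelled array none was called, where 2.9% of all genes were lower and 5.78% higher, and the median was -0.03. The list was drawn up with results of these arrays known, so its counts are a description.

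Mitosis genes lay lower on the DKO-labelled array with fewer past the rule. Of 26 tested, 4 were called lower, namely Top2a (-1.45), the proliferation marker Mki67 (-1.44), the checkpoint kinase Bub1 (-1.42) and Aurkb (-1.30). None was called higher. The shares over all genes were 2.2% lower and 2.13% higher. Below wild type were 25 of 26, with a median of -0.78. With the Bmi1 label none was called, where 2.9% of all genes were lower and 5.78% higher. With the Mel18 label none was either, where 2.52% were lower and 3.16% higher. The list medians on these arrays were 0.15 and 0.06. The difference between the S-phase and mitosis lists was not tested.

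The other enzymes of deoxynucleotide metabolism were called lower in 2 cases each on the DKO-labelled and Mel18-labelled arrays. Among 20 other deoxynucleotide enzymes tested on the DKO-labelled array, 2 were lower, the cytidine deaminase Cda at -1.92 and the folate enzyme Mthfd1, which feeds thymidylate synthesis, at -1.21, and none was higher, with a median of -0.23, where 2.2% of all genes were lower and the median over all was -0.01. Cda read 152, 206, 212 and 40.2, and Mthfd1 647, 698, 556 and 280.1. The thymidylate kinase Dtymk (-0.71) and the deoxycytidine kinase Dck (-0.63) were below wild type within 2-fold. The mitochondrial kinases Tk2 and Dguok differed from wild type by only -0.02 each in the double knockout. On the Mel18-labelled array the uridine phosphorylase Upp1 (-1.69) and the interferon-inducible kinase Cmpk2 (-1.25) were lower among 21 tested, where 2.52% of all genes were. None of 20 was called on the Bmi1-labelled array, where 2.9% of all genes were lower and 5.78% higher.

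Against wild type, genes of ribonucleotide synthesis gave no call in the double knockout among 20 tested, with a median of -0.34 and 15 of 20 below wild type. Against the Bmi1-labelled array 8 of 20 were lower in the double knockout, where 8.01% of all genes were, with a median of -0.83. Against the Mel18-labelled array 3 of 20 were lower, where 4.55% were, with a median of -0.54. At a background of 2.2% lower and 2.13% higher, the absence of a call against wild type says little about so short a list. The purine enzyme Paics was higher on the Bmi1-labelled array at 1.61 and on the Mel18-labelled array at 1.07, reading 924, 2812, 1943 and 854. Prps2 was higher on the Bmi1-labelled array at 1.01. Among all genes 5.78% were called higher on the Bmi1-labelled array and 3.16% on the Mel18-labelled array. With each array centred on its median over genes that reached the floor, Prps2 was at 0.78 and Paics on the Mel18-labelled array at 0.91, both short of the rule. The other purine steps Gart, Pfas and Atic lay at -0.86, -0.91 and -0.90 in the double knockout.

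**Figure D4:**
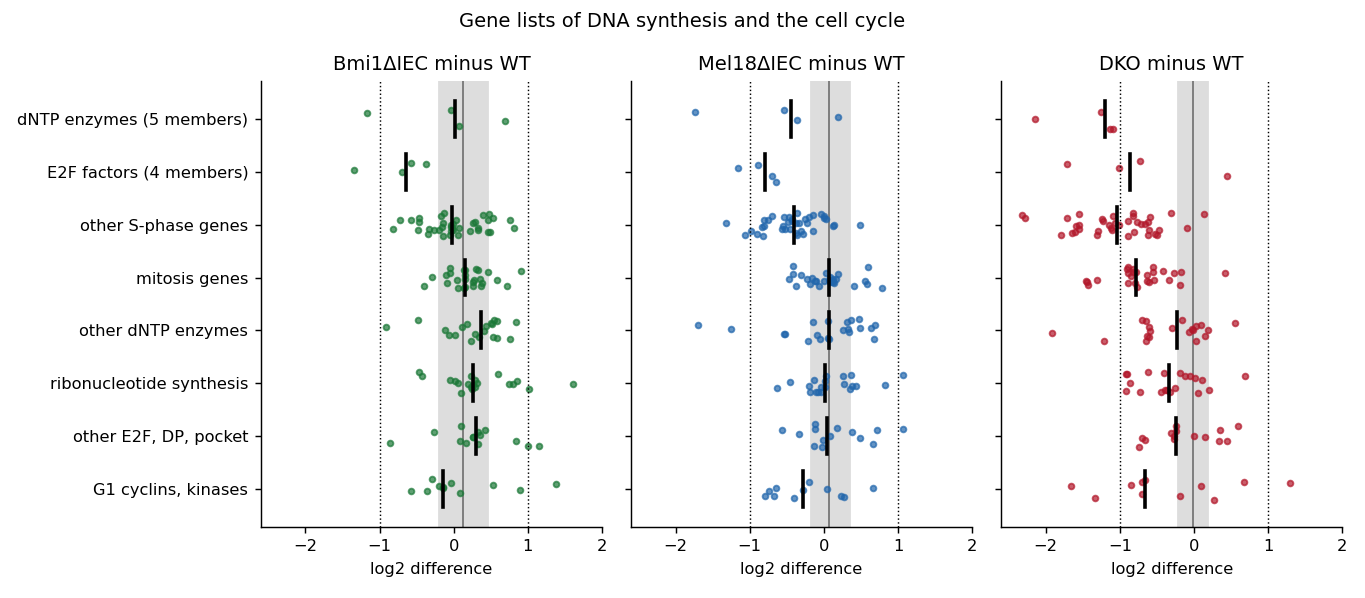
Log2 difference from the WT array for each gene tested in 8 lists, with 1 panel per knockout array. Points are genes, black bars list medians, the grey band the middle 50% of all genes tested and dotted lines the 2-fold rule. On the DKO array the median of the other S-phase genes lies at -1.03 and that of the mitosis genes at -0.78, while the other deoxynucleotide enzymes lie at -0.23.

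Among 14 tested E2F, DP, pocket protein and DREAM complex genes the median on the DKO-labelled array was -0.24. None was called, which at a background of 2.2% lower and 2.13% higher says little about so short a list. The activator E2f3 lay at -0.65, the repressor E2f6 at -0.74, and E2f4 and E2f5, which act with pocket proteins in resting cells, at 0.14 and 0.00. The retinoblastoma gene Rb1 lay at -0.24 and its relative Rbl1 at -0.70. On the Bmi1-labelled array the DP partner Tfdp2 (1.01) and the pocket protein Rbl2 (1.15) were higher, where 5.78% of all genes were. On the Mel18-labelled array Tfdp2 (1.06) was higher, where 3.16% were. None of these 3 calls held when each array was centred on its median over genes that reached the floor, which gave 0.78, 0.92 and 0.90. Mybl2, an S-phase partner of that complex, was under the floor on all arrays, at 31.7, 15.8, 14.9 and 14.7.

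Of 7 CDK inhibitor genes tested on the DKO-labelled array, the 2 of the Cdkn2a and Cdkn2b locus were higher than in wild type. The other 5, Cdkn1a (0.00), Cdkn1b (-0.48), Cdkn1c (-0.61), Cdkn2c (-0.18) and Cdkn2d (-0.01), were not called, and the list median was -0.01. Against the Bmi1-labelled array Cdkn1b (-1.14) and Cdkn1c (-1.03) were lower in the double knockout, where 8.01% of all genes were. Against the Mel18-labelled array Cdkn1b (-1.09) was lower, where 4.55% were. Cdkn2a read 10.6 in wild type, 11.9 with the Bmi1 label, 11.7 with the Mel18 label and 662 with the DKO label. It is read from a single probe set, so its products are not told apart. Cdkn2b read 282, 491, 648 and 817, higher than wild type by 1.20 on the Mel18-labelled array and by 1.54 in the double knockout. On the Mel18-labelled array 3.16% of all genes were higher. Of the G1 cyclins and kinases, 11 were tested: Ccne2, the cyclin E that activates Cdk2, was lower in the double knockout at -1.66 and Skp2, which directs degradation of CDK inhibitors, at -1.34, while Ccnd2 was higher at 1.30. The shares over all genes in the double knockout were 2.2% lower and 2.13% higher. Cdk6 was higher on the Bmi1-labelled array at 1.38, where 5.78% of all genes were. Ccnd1 lay at 0.09 and Cdk4 at -0.66 in the double knockout, without a call.

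Markers of the epithelium and of crypt cells stood beside the double-knockout values as follows. The 11 epithelial markers summed to 77139 in wild type, 65188 with the Bmi1 label, 68405 with the Mel18 label and 79595 in the double knockout, and none was called there. Of 10 intestinal stem cell markers tested in the double knockout, 3 were lower, namely Cdca7 (-1.79), Axin2 (-1.12) and Smoc2 (-1.06), where 2.2% of all genes were. Sox9 (1.68) and Prom1 (1.33) were higher, where 2.13% were. Of the 10, 8 lay below wild type, with a median of -0.46. The summed intensity of the 12 measured ran the other way, at 3278, 2937, 3823 and 6519, of which Prom1 gave 5341 in the double knockout. Olfm4 was under the floor on every array. On the Bmi1-labelled array 3 of 11 stem cell markers tested were higher, where 5.78% of all genes were. They were Smoc2 (2.16), Lgr5 (2.11) and Ascl2 (1.54). Prom1 was lower there at -1.14, where 2.9% were. On the Mel18-labelled array Smoc2 (1.18) and Znrf3 (1.01) were higher among 11 tested, where 3.16% were, and none was lower. Znrf3 fell to 0.85 with each array centred on its median over genes that reached the floor. Lgr5 read 21.7, 93.6, 35.1 and 18.8. The 9 fibroblast markers summed to 3613, 1671, 3759 and 5719. The part of the cell mixture in the members' values was not tested.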

How the data were processed

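Each of 4 arrays gave 1 value per probe set. The deposited intensities are RMA values on a linear scale, which the authors made in Affymetrix Expression Console (no version) per the submitters' processing notes. Joint or separate summarisation is not stated there. Log2 was taken without a pseudocount and no further scaling was applied. Of 45037 probe sets, 34945 had 1 gene symbol, 932 several and 9160 none in the platform annotation, and 34741 matched a current gene of GRCm38.p6, from which symbols were updated. Each gene was represented by the probe set whose mean was highest. The floor was percentile 50 of all values.

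The members and all gene lists were chosen with earlier results of these data known. The rule for named genes took the members with every probe set, up to 6 genes per list and direction that passed the 2-fold rule against wild type, largest first, Cdkn2a, and the 8 genes nearest to the members' mean and to Rrm2, without clone or predicted names. Other genes named, among them the neighbours of E2f2, the list genes without a call and Pola1, Chek1 and Ung, were chosen after their values were seen. Of the 5 comparisons, 3 are with wild type. The calling rule was tested on simulated data. With 1 array per genotype the number of arrays limits the precision, and no test was possible. Python 3.11.15, numpy 2.4.6 and pandas 2.3.3 were used. Alternatives were the mean over probe sets, no floor, a floor at percentile 75, centring on array medians or on genes at or above the floor, a 1.5-fold rule, quantile normalization, dropping sets with suffixes of less specific probes, and, added after the data were seen, counting the shared Tyms set.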

Additional observations from a re-analysis of the deposited data

Results flagged for a closer look

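E2f2 differed between backgrounds. Set against wild type, the Bmi1-labelled array was lower by a log2 difference of -1.34, whereas the DKO-labelled array, which adds the Bmi1 label to Mel18, was higher than the Mel18-labelled array by 1.61. For the Mel18 label the values were -1.16 against wild type and 1.79 against the Bmi1-labelled array. Each value comes from 1 array per side and the difference between backgrounds was not tested. Both E2f2 probe sets had this shape.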

How the results depend on the processing

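No paired analysis was possible because each genotype has 1 array. For the same reason no array could be left out. Among the member differences still tested under the alternatives, 320 kept their side of the rule, 10 lost a call and 12 gained one. No called difference among them changed sign. The 320 include settings that leave a value as it was. Calls lost because the gene fell under the floor are not counted. With the higher floor these were E2f7 in the double knockout against wild type and E2f8 there against both single-knockout arrays. Without the sets of less specific probes they were Dut in the double knockout against wild type and against the Bmi1-labelled array.

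With all probe sets of a gene averaged, which takes in sets under the floor, 3 members were lower in the double knockout than in wild type in place of 6, 1 was lower on the Bmi1-labelled array, 2 against the Bmi1-labelled array and 1 against the Mel18-labelled array, and the medians were -0.98 against wild type and -0.63 against the Bmi1-labelled array. With each array centred on its median over genes that reached the floor, 2 members were lower in the double knockout against the Bmi1-labelled array, with a median of -0.86, and 1 against the Mel18-labelled array. With the floor at percentile 75, 1 was lower against the Mel18-labelled array. The median against the Bmi1-labelled array was -0.98 without a floor, -0.98 after quantile normalization and -0.98 with the shared Tyms set. Under the 1.5-fold rule 1 member (Dut) was higher on the Bmi1-labelled array, 5 were lower on the Mel18-labelled array and 4 were lower in the double knockout against the Mel18-labelled array.

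Among other S-phase genes, 32 were lower in the double knockout under the 1.5-fold rule. Centring on the genes that reached the floor moved the median of all genes by -0.24 on the Bmi1-labelled array and by -0.17 on the Mel18-labelled array, and the share of called genes that were higher from 66.6% to 38.1% and from 55.6% to 36.5%; in the double knockout it was 49.2% and 49.3%. Differences near or under the floor may depend on background signal.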
